A study of Mus musculus with 57 samples.

Results

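This account covers 10 genes that switch off mitogen-activated protein (MAP) kinase signalling, measured in mouse liver: 7 dual-specificity phosphatases (Dusp1, Dusp2, Dusp4, Dusp5, Dusp6, Dusp8 and Dusp10) and 3 Sprouty genes (Spry1, Spry2 and Spry4). They were chosen by symbol, with earlier results of these data known, and each of the 10 matched 1 of the 54307 genes in the deposited table. RNA was sequenced from the livers of 57 male wild-type C57BL/6JJcl mice, which were 6 weeks old and had 1 week to acclimatise; they went without food for 12 h before dosing, and their livers were taken at 24 h. By gavage, 4 mice received alpha-naphthyl isothiocyanate (ANIT, a bile duct toxicant), 7 received 4,4'-methylenedianiline (MDA, which also injures bile ducts), 6 received acetaminophen (APAP) and 5 received thioacetamide (TAA), and the last 2 agents injure hepatocytes around the central vein. Carbon tetrachloride (CCl4, 7 mice) and galactosamine (GAL, 4 mice) were injected intraperitoneally, and concanavalin A (ConA, 7 mice), a lectin that activates T cells, was injected intravenously. Controls received vehicle alone: methylcellulose (0.5%) through a gavage needle in 13 mice, and saline (0.9%) in 2 mice injected intraperitoneally and 2 injected intravenously. The doses are not given in the sources used here. Corn oil is also named as a vehicle but no group received it alone, so that for any compound given in corn oil the effects of compound and oil cannot be told apart.

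MAP kinases such as ERK, JNK and p38 are activated by phosphorylation of a threonine and a tyrosine, and dual-specificity phosphatases remove both phosphates. Dusp1, Dusp2, Dusp4 and Dusp5 encode inducible nuclear enzymes, Dusp6 a cytoplasmic enzyme selective for ERK, and Dusp8 and Dusp10 enzymes that act mainly on JNK and p38. Sprouty proteins dampen signalling from growth factor receptors through Ras to ERK. Many of these genes are transcribed in response to the kinases they restrain, which makes their RNA a feedback readout, and in liver the ERK pathway is driven by ligands of the EGF and HGF receptors during regeneration.

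Sequence upstream of the start site is shown for 4 phosphatases on which the results turn: Dusp5 and Dusp8, which rose with all 7 compounds, Dusp1, which rose with 3, and Dusp6, whose level passed that of Dusp1 in GAL livers. RefSeq (GRCm38.p6, a different build from the GRCm39 named for the deposited values) held a promoter window for 8 of the 10 genes, all but Dusp4 and Spry4. The 250 bases before each start are printed, with matches to the searched motifs in capitals. The windows lie at chr19:53528895-53529144 (plus strand, Dusp5), chr7:142095285-142095534 (minus strand, Dusp8), chr17:26508473-26508722 (minus strand, Dusp1) and chr10:99262981-99263230 (plus strand, Dusp6).
Dusp5: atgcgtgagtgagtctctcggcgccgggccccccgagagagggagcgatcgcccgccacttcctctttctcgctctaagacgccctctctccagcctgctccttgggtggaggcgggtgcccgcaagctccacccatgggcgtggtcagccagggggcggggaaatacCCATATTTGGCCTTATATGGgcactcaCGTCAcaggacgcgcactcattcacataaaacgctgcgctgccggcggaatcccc
Dusp8: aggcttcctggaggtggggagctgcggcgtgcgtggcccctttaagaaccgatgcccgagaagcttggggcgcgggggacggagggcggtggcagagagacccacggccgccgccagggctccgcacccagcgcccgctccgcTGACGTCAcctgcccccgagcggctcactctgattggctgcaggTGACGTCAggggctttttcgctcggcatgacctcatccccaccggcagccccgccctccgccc
Dusp1: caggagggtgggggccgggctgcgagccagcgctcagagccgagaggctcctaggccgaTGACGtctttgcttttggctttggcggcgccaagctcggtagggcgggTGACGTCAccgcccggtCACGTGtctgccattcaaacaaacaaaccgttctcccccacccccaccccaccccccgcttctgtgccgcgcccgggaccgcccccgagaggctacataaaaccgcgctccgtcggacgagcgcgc
Dusp6: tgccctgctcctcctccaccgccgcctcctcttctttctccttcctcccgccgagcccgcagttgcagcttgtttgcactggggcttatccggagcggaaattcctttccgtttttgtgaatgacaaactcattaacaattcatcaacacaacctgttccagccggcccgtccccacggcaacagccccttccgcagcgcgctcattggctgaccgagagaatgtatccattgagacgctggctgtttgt

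Matches were counted on both strands of the windows from 250 bases before to 50 bases after the start. Dusp5 carried 2 adjoining CArG boxes, the binding sequence of serum response factor, at -82 to -73 and -72 to -63, and 1.63% of 32851 promoters held at least 1. Dusp8 carried 2 copies of the cAMP response element TGACGTCA, at -107 to -100 and -63 to -56, and Dusp1 carried 1, at -143 to -136. That element occurred in 1.79% of all promoters. Its core TGACG, which every full element contains, lay in 4 of the 8 windows (Dusp1, Dusp2, Dusp5 and Dusp8) and in 20.8% of all promoters. The E-box CACGTG lay in the Dusp1 and Dusp2 windows and in 7.15% of all promoters. No window of the 8 held the AP-1 site TGANTCA (7.81% of all promoters) or the ETS core CCGGAAGT (3.89%), and the Dusp6 window held none of the motifs searched. These matches describe letters only and say nothing of binding.

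Levels are given as CPM, the estimated counts brought to a common library size with TMM factors over all 57 samples. The deposited values behave as if already divided by gene length, which the labels do not state, so CPM is compared between genes here as a level per length. Dusp1 and Dusp6 were the most abundant of the 10 in vehicle livers. Over the 17 vehicle mice Dusp1 stood at 56.4 ± 16.1 CPM (SD, n = 17) and Dusp6 at 24.5 ± 11.2 CPM (SD, n = 17). Their ranges overlapped, from 16.0 to 85.4 and from 14.2 to 54.3 CPM, but within a mouse Dusp6 exceeded Dusp1 in only 1 of the 17. Spry1 (2.61 ± 0.521 CPM) and Spry4 (2.53 ± 1.09 CPM) followed and did not differ beyond their spread, and Dusp10 came next at 1.38 ± 0.359 CPM. Dusp4 (0.663 ± 0.181 CPM), Spry2 (0.506 ± 0.149 CPM), Dusp5 (0.479 ± 0.33 CPM), Dusp8 (0.43 ± 0.336 CPM) and Dusp2 (0.26 ± 0.181 CPM) were low, and neighbours in that order did not differ beyond their spread. None of the 10 was called between intraperitoneal saline and gavage controls or between intravenous saline and gavage controls (edgeR, in which 0.0131% and 0.0263% of all genes were called and 570 and 580 genes had an unadjusted p under 0.05), although 2 saline mice a group allow only large differences to be seen. The saline groups were not tested against each other, and in Spry4 they did not overlap (3.03 and 3.40 CPM in intraperitoneal and 1.92 and 1.85 CPM in intravenous saline mice).

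**Figure D1:**
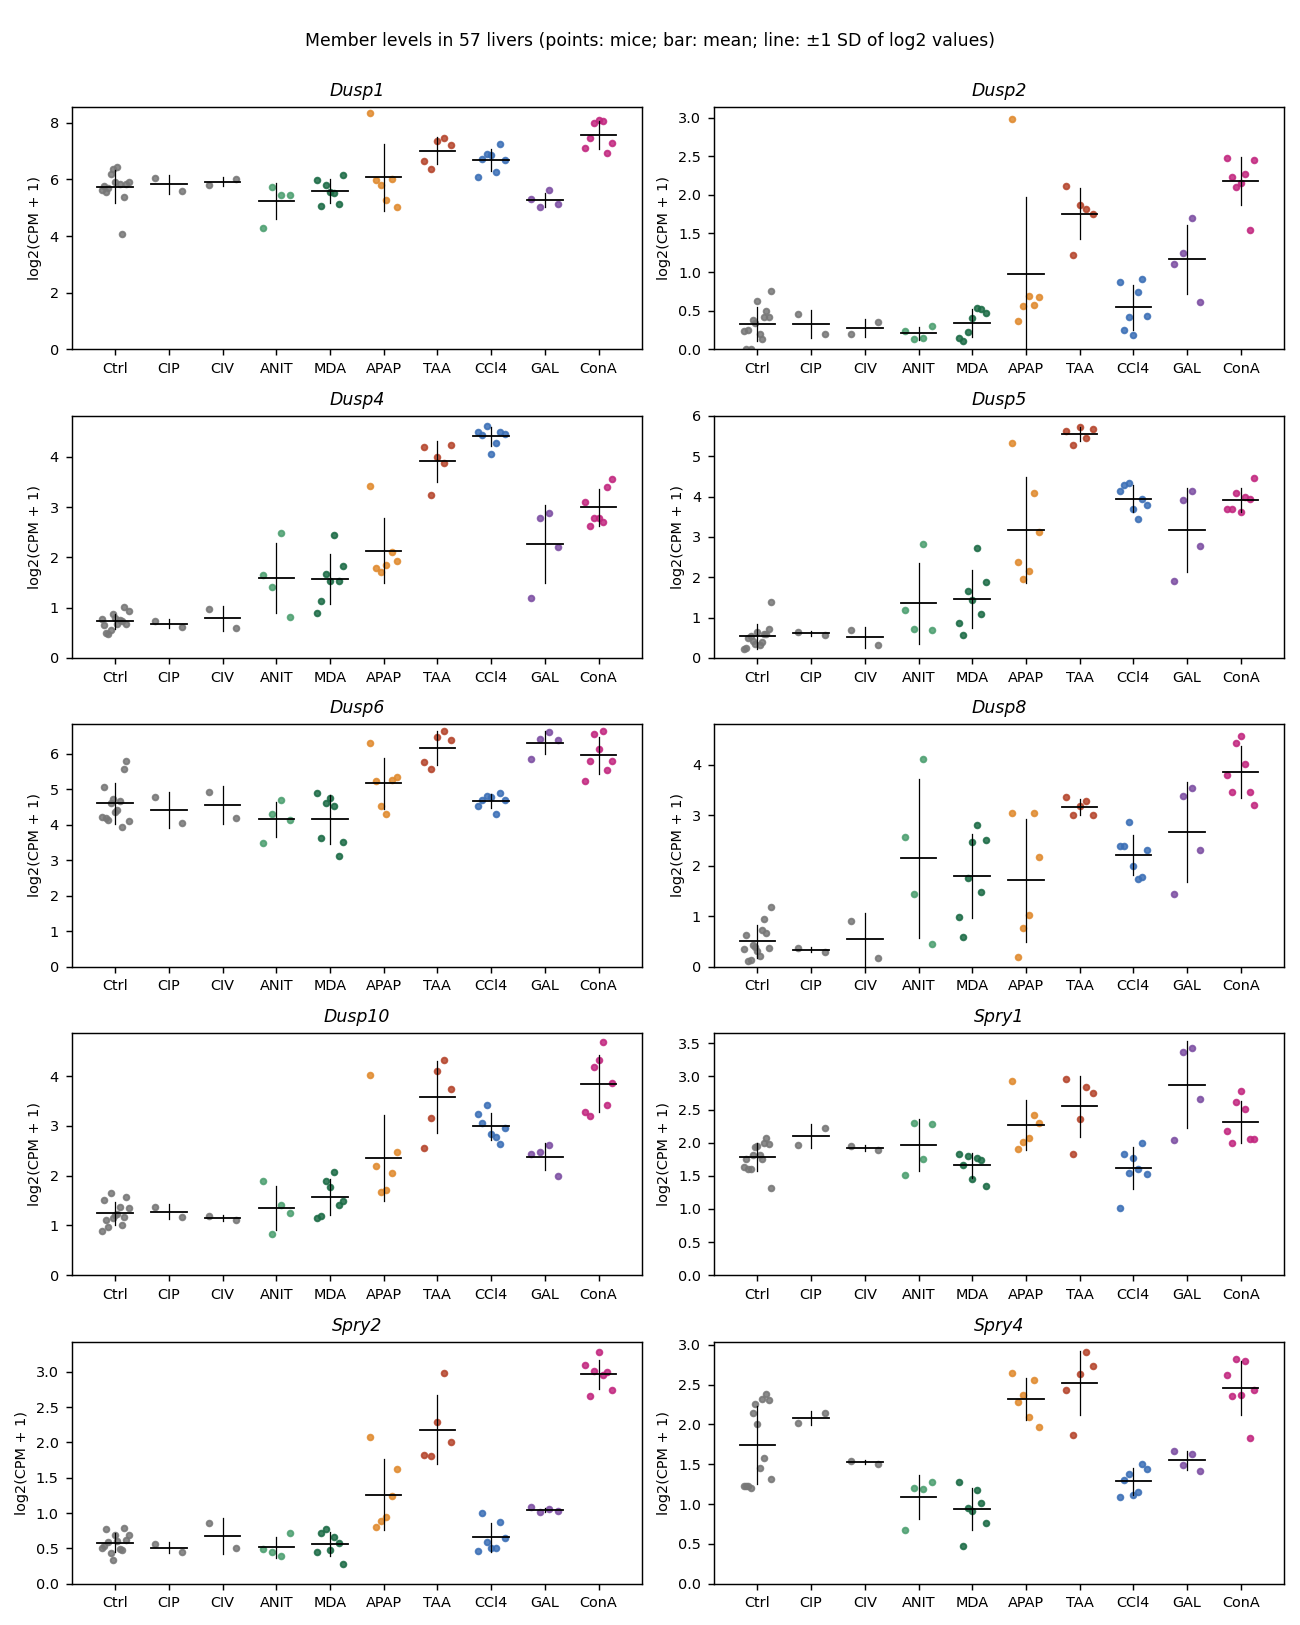
Levels of the 10 genes in each of 57 livers, as log2(CPM + 1) on the vertical axis with groups along the horizontal axis. Points are mice, horizontal bars are means and vertical lines are 1 SD either side of the mean. Dusp4 and Dusp5 in the 5 TAA and 7 CCl4 mice sit above all 17 vehicle mice, whereas 1 APAP mouse lies far above the other APAP mice in several panels.

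Each compound was compared with the vehicle of its own route by edgeR's quasi-likelihood test, and a gene is called where its Benjamini-Hochberg adjusted p over all genes tested is under 0.05. The largest number of these feedback genes rose in TAA livers, then in ConA livers, and the fewest rose in ANIT and MDA livers. In TAA livers 10 of 10 rose, where 50.5% of all genes were called (26.4% higher and 24% lower). In ConA livers 9 of 10 rose and none fell, where 34.2% of all genes were called (16.8% higher, 17.3% lower). In APAP livers 7 of 10 rose and none fell, against 31.8% of all genes called (17.3% higher, 14.6% lower).

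In CCl4 livers 5 of 10 rose and 1 fell, where 33.5% of all genes were called (18% higher, 15.6% lower). In GAL livers 5 of 10 rose and none fell, where 28.5% of all genes were called (12.8% higher, 15.7% lower). In MDA livers 4 of the 9 tested rose and 1 fell, against 33.8% of all genes called (17.4% higher, 16.4% lower). In ANIT livers 3 of the 9 tested rose and 1 fell, against 28.2% of all genes called (14% higher, 14.2% lower). Dusp2 was too low to be tested with ANIT and MDA. In all 7 comparisons the share of tested members called higher exceeded the share of all genes called higher. The members were chosen with earlier results of these data known, so this excess is a description and not a test.

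The median log2 fold change over the genes tested was 3.40 with ConA, 3.02 with TAA, 1.77 with APAP, 1.69 with GAL, 0.84 with CCl4, 0.21 with ANIT and -0.05 with MDA. The median over all genes tested lay between -0.01 and 0.10 in these comparisons. The GAL count rests on both saline mice: 0 of 10 members were called without saline mouse 8 (9.49% of all genes called) and 1 of 10 (Dusp6) without saline mouse 7 (10.8%), with the fold changes of Dusp4, Dusp5, Dusp6, Dusp8 and Dusp10 upward in both. It was 3 of 10 members without GAL mouse 4 (16.7% of all genes). The ANIT count was 2 of 9 members without ANIT mouse 3 (17.5% of all genes). Calls over all genes fell in each of these fits too. Against all 17 vehicle mice, which includes the mice of the other routes, GAL livers had 8 of 10 higher and 1 lower, where 52.5% of all genes were called (25.1% higher, 27.5% lower). The same wider comparison gave 10 of 10 higher with ConA (68% of all genes called, 34.3% higher and 33.7% lower), 10 of 10 higher with TAA (49.7% called, 25.2% higher and 24.5% lower) and 8 of 10 higher with APAP (33.4% called, 18.1% higher and 15.3% lower). It gave 5 of 10 higher and 1 lower with CCl4 (53.4% called, 26.2% higher and 27.2% lower), 4 of 9 higher and 1 lower with MDA (34.2% called, 17.2% higher and 17.1% lower) and 3 of 9 higher and 1 lower with ANIT (28% called, 13.5% higher and 14.5% lower). Comparisons against all vehicles share control mice with each other and with the comparisons by route.

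**Figure D2:**
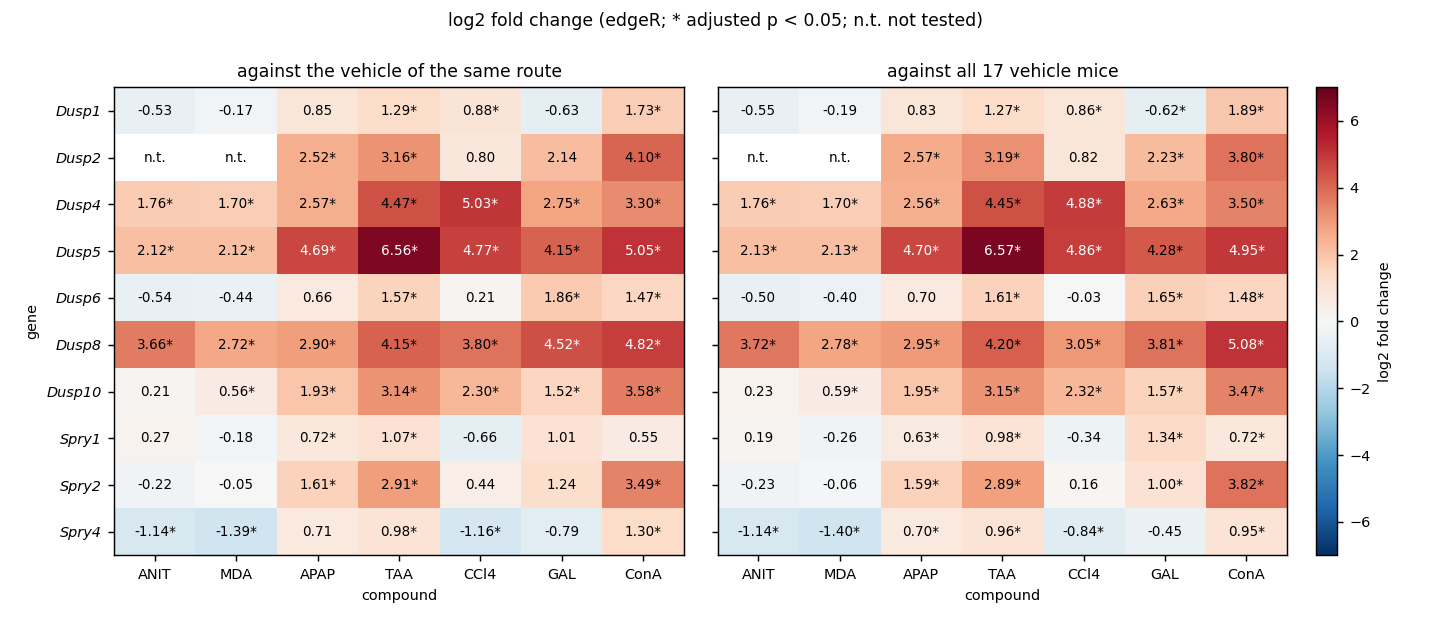
log2 fold changes of the 10 genes (rows) for 7 compounds (columns), against the vehicle of the same route on the left and against all 17 vehicle mice on the right; colour gives the log2 fold change and a star an adjusted p under 0.05. The Dusp4, Dusp5 and Dusp8 rows are starred for all 7 compounds, from 1.70 to 6.56 by route, and the Spry4 row holds both falls and rises.

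Genes in which every treated mouse lay beyond every control mouse were also counted, and the order of the compounds was not that of the calls. Such separation upward was seen for 10 of 10 genes with ConA, where 19.5% of all genes did so against 2 saline mice. It was seen for 7 of 10 with GAL (28.6% of all genes, also against 2 saline mice), 6 of 10 with TAA (10.2%), 5 of 10 with CCl4 (22.5%), 4 of 10 with APAP (2.12%) and none with ANIT (4.11%) or MDA (1.75%). Spry4 lay wholly below the 2 saline mice with CCl4, where 18.4% of all genes did so, and with GAL, where 23.7% did so.

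Dusp5, an ERK-specific nuclear phosphatase, showed the largest single change. In the 13 gavage controls it ranged from 0.168 to 1.62 CPM with a median of 0.408 CPM, and in the 5 TAA mice it stood at 48.3, 37.8, 51.5, 43.0 and 50.1 CPM. No TAA mouse came near a control. The mean was 0.479 ± 0.372 CPM (SD, n = 13) in controls and 46.1 ± 5.69 CPM (SD, n = 5) in TAA livers. On the log2 scale the rise was 6.56 ± 0.33 (SE; adjusted p = 1.16e-11), or 94.5-fold. Dusp5 in the 7 ConA mice ranged from 11.2 to 20.9 CPM (median 14.2) against 0.616 and 0.254 CPM in the intravenous saline mice. The log2 fold change was 5.05 ± 0.48 (adjusted p = 7.22e-05). Over 18 alternative settings that value ran from 3.11 to 5.85, the highest without saline mouse 7. In the 7 CCl4 mice Dusp5 ranged from 9.82 to 19.3 CPM (median 14.2) against 0.573 and 0.484 CPM in the intraperitoneal saline mice. There the log2 fold change was 4.77 ± 0.35 (adjusted p = 1.69e-05). Both groups lay wholly above their saline mice.

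The rise of Dusp5 was less even in the other groups. The 4 GAL mice had 2.74, 14.1, 16.6 and 5.85 CPM, a log2 fold change of 4.15 ± 0.92 (adjusted p = 0.0202). The 6 APAP mice ranged from 2.89 to 39.0 CPM (median 5.96), all above the gavage controls, with a log2 fold change of 4.69 ± 0.51 (adjusted p = 2.22e-06). The highest APAP value belonged to mouse 1, and without that mouse the log2 fold change was 3.81. Dusp5 in the 7 MDA mice ranged from 0.471 to 5.64 CPM (median 1.71; log2 fold change 2.12 ± 0.43, adjusted p = 0.000669) and overlapped the controls. In the 4 ANIT mice it stood at 1.28, 0.649, 6.04 and 0.622 CPM, so that only mouse 3 exceeded every control. The ANIT log2 fold change of 2.12 ± 0.54 (adjusted p = 0.00713) became 0.79 without mouse 3 (adjusted p = 0.343).

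Dusp4, a nuclear phosphatase of ERK and JNK, also rose with all 7 compounds, and its highest level was in CCl4 livers. The 2 intraperitoneal saline mice had 0.673 and 0.530 CPM and the 7 CCl4 mice 15.6 to 23.4 CPM (median 20.9). The groups were far apart and the CCl4 mice close together. The log2 fold change was 5.03 ± 0.23 (adjusted p = 3.33e-06), or 32.7-fold. In TAA livers Dusp4 stood at 17.2, 8.44, 15.1, 13.7 and 17.9 CPM, against 0.396 to 1.01 CPM (median 0.665) in gavage controls, a log2 fold change of 4.47 ± 0.19 (adjusted p = 1.88e-12). The ConA mice ranged from 5.15 to 10.7 CPM (median 5.91; log2 fold change 3.30 ± 0.47, adjusted p = 0.000592). TAA, CCl4 and ConA mice did not overlap their controls. The GAL mice had 1.30, 5.84, 6.38 and 3.59 CPM (2.75 ± 0.74, adjusted p = 0.0359), a call that was lost when mouse 4, 7 or 8 of that group was left out (adjusted p 0.0757, 0.0641 and 0.0703). APAP mice ranged from 2.25 to 9.70 CPM (median 2.69; 2.57 ± 0.28, adjusted p = 2.45e-06), all above the controls. ANIT mice had 2.12, 1.66, 4.61 and 0.769 CPM (1.76 ± 0.32, adjusted p = 0.00054, and 1.15 without mouse 3) and MDA mice 0.850 to 4.42 CPM (median 1.90; 1.70 ± 0.25, adjusted p = 2.49e-05), and both overlapped the controls in their lowest mice.

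Dusp8, a phosphatase of JNK and p38 best known from brain and heart, completed the set called with every compound. The gavage controls ranged from 0.0831 to 1.26 CPM (median 0.305) and the 5 TAA mice stood at 9.27, 7.04, 8.03, 8.71 and 7.05 CPM, a log2 fold change of 4.15 ± 0.39 (adjusted p = 4.28e-08). TAA mice were uniform in this gene. The ConA mice ranged higher, from 8.22 to 22.9 CPM (median 13.0), against 0.879 and 0.122 CPM in their saline mice, a log2 fold change of 4.82 ± 0.76 (adjusted p = 0.0011) that was 6.77 without saline mouse 7 and 4.01 without saline mouse 8. CCl4 mice ranged from 2.35 to 6.26 CPM (median 3.94) against 0.297 and 0.227 CPM (3.80 ± 0.50, adjusted p = 0.000402), and GAL mice stood at 1.70, 9.39, 10.7 and 3.93 CPM (4.52 ± 0.98, adjusted p = 0.0186). None of these 4 groups overlapped its controls. ANIT mice spread from 0.363 to 16.3 CPM, with 4.93 and 1.72 CPM between (3.66 ± 0.62, adjusted p = 0.000319). Without mouse 3, the highest, the ANIT value was 2.34 (adjusted p = 0.016). APAP mice spread from 0.143 to 7.30 CPM (median 2.26; 2.90 ± 0.59, adjusted p = 0.000917) and MDA mice from 0.505 to 5.97 CPM (median 2.38; 2.72 ± 0.46, adjusted p = 0.000114). In those 3 groups some mice were at control level and others well above it.

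Dusp10, whose product acts on p38 and JNK, rose with 6 compounds. The 13 gavage controls ranged from 0.837 to 2.16 CPM (median 1.33), the TAA mice stood at 4.89, 7.95, 16.3, 19.0 and 12.4 CPM, and the log2 fold change was 3.14 ± 0.24 (adjusted p = 2.77e-09). ConA mice ranged from 8.16 to 24.6 CPM (median 13.6) against 1.28 and 1.15 CPM (3.58 ± 0.51, adjusted p = 0.000641). CCl4 mice ranged from 5.18 to 9.72 CPM (median 6.78) against 1.6 and 1.24 CPM (2.30 ± 0.30, adjusted p = 0.000352). All 3 groups lay above every control of their route. GAL mice had 4.44, 4.60, 5.10 and 2.96 CPM (1.52 ± 0.34, adjusted p = 0.0206) and also lay above their controls, a call lost without GAL mouse 4 (adjusted p = 0.0569). APAP mice ranged from 2.17 to 15.2 CPM (median 3.37; 1.93 ± 0.33, adjusted p = 0.000213, and 1.18 without mouse 1), the lowest just above the highest control. MDA mice ranged from 1.21 to 3.23 CPM (median 1.82; 0.56 ± 0.22, adjusted p = 0.0484), and this call was lost on leaving out mouse 3, 4, 7, 8 or 12 (adjusted p 0.0541 to 0.161). ANIT mice had 2.72, 0.773, 1.66 and 1.38 CPM, with a log2 fold change of 0.21 ± 0.29 that did not pass (adjusted p = 0.626).

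Dusp1, the immediate early phosphatase of p38, JNK and ERK, was already abundant and moved by smaller factors. Gavage controls ranged from 16.0 to 85.4 CPM (median 55.9). TAA mice stood at 99.7, 81.9, 162, 176 and 148 CPM, with only mouse 3 inside the control range, a log2 fold change of 1.29 ± 0.24 (adjusted p = 0.000198). ConA mice ranged from 121 to 276 CPM (median 176) against 54.7 and 64.4 CPM, a log2 fold change of 1.73 ± 0.36 (adjusted p = 0.00495). The ConA mice lay above all 17 vehicle mice. CCl4 mice ranged from 67.5 to 152 CPM (median 105) against 65.9 and 47.0 CPM, a log2 fold change of 0.88 ± 0.28 (adjusted p = 0.036). The lowest CCl4 mouse was close to the higher saline mouse. That call was lost on leaving out mouse 5, 6, 8 or 12 of the CCl4 group or either saline mouse (adjusted p 0.0526 to 0.272), but it held against all 17 vehicles (0.86 ± 0.19, adjusted p = 0.000461). In the other 4 groups Dusp1 was not called by route.

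In APAP livers Dusp1 stood at 324 CPM in mouse 1 and between 31.8 and 63.2 CPM in the other 5. The log2 fold change of 0.85 ± 0.40 (adjusted p = 0.113) became -0.15 without mouse 1. GAL mice had 38.3, 31.6, 48.2 and 34.3 CPM, of which 1 exceeded the lower saline mouse. The GAL log2 fold change was -0.63 ± 0.25 against saline (adjusted p = 0.0995) and -0.62 ± 0.25 against all 17 vehicles (adjusted p = 0.0442). The latter call held in only 4 of 16 alternatives: it was lost without GAL mouse 2, 4 or 8 (adjusted p 0.117 to 0.190) and, among others, by RLE scaling (0.0579), without a filter (0.0611), by limma (0.0739) and with the number range as a covariate (0.0714). The GAL direction for Dusp1 depends on scaling: scaled to the library total alone, the log2 fold change was 0.11 against saline and 0.20 against all vehicles (adjusted p = 0.528), where the median of all genes also moved up by 0.84 log2 units. ANIT (18.6, 52.1, 42.8 and 42.9 CPM) and MDA (32.3 to 70.2 CPM, median 45.7) stayed within the control range, with log2 fold changes of -0.53 ± 0.31 and -0.17 ± 0.23.

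Dusp2, an inducible nuclear phosphatase abundant in activated leukocytes, was near the limit of detection in vehicle livers. Gavage controls ranged from 0 to 0.693 CPM (median 0.261), on at most 18.8 estimated counts. ConA mice ranged from 1.90 to 4.56 CPM (median 3.70) against 0.146 and 0.278 CPM. The log2 fold change was 4.1 ± 0.52 (adjusted p = 0.000319). Over 17 alternative settings that value ran from 1.63 to 4.71, the highest without saline mouse 8. TAA mice had 3.34, 1.32, 2.64, 2.52 and 2.37 CPM, a log2 fold change of 3.16 ± 0.48 (adjusted p = 2.23e-05). Both groups lay above all 17 vehicle mice. GAL mice had 1.15, 1.36, 2.24 and 0.531 CPM against 0.370 and 0.151 CPM; the log2 fold change of 2.14 ± 0.76 did not pass against saline (adjusted p = 0.0784) and passed against all vehicles at 2.23 ± 0.52 (adjusted p = 0.00103). CCl4 mice ranged from 0.136 to 0.881 CPM (median 0.348; 0.80 ± 0.80, adjusted p = 0.478). The APAP call (2.52 ± 0.67, adjusted p = 0.00724) came from mouse 1 at 6.92 CPM, since the other 5 lay between 0.288 and 0.610 CPM, and without mouse 1 the value was 0.84 (adjusted p = 0.281).

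Dusp6, the cytoplasmic ERK phosphatase, rose with 3 compounds. The GAL mice had 56.1, 84.1, 96.3 and 82.4 CPM against 26.5 and 15.6 CPM in intraperitoneal saline mice, a log2 fold change of 1.86 ± 0.34 (adjusted p = 0.0117). All 4 exceeded every one of the 17 vehicle mice, whose highest was 54.3 CPM. TAA mice had 52.8, 46.6, 87.4, 98 and 82.0 CPM against 14.2 to 54.3 CPM (median 20.1) in gavage controls, a log2 fold change of 1.57 ± 0.27 (adjusted p = 8.89e-05), with mice 1 and 3 inside the control range. ConA mice ranged from 36.5 to 99.3 CPM (median 54.3) against 29.5 and 17.1 CPM, a log2 fold change of 1.47 ± 0.41 (adjusted p = 0.0195). Without saline mouse 8 the ConA value was 1.14 (adjusted p = 0.148), and against all 17 vehicles it was 1.48 ± 0.23 (adjusted p = 3.89e-06). Scaled to library totals alone, which moved the median of all genes to -0.56 with ConA, the ConA values of Dusp6 (0.87, adjusted p = 0.214), Dusp1 (1.15, adjusted p = 0.0653) and Spry4 (0.70, adjusted p = 0.267) no longer passed. CCl4 mice kept to 18.5 to 28.4 CPM (median 24.9), where Dusp4 and Dusp5 had their large rises, with a Dusp6 log2 fold change of 0.21 ± 0.20 (adjusted p = 0.452). APAP (0.66 ± 0.31, adjusted p = 0.107), ANIT (-0.54 ± 0.34, adjusted p = 0.251) and MDA (-0.44 ± 0.30, adjusted p = 0.266) did not pass.

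The order of Dusp6 and Dusp1 was reversed in GAL livers, a comparison chosen after the values were seen and given without a test. The ratio of Dusp6 to Dusp1 was 1.47 to 2.66 in the 4 GAL mice (median 2.20) and 0.235 to 1.16 in the 17 vehicle mice (median 0.358). Dusp6 exceeded Dusp1 in 4 of 4 GAL mice, 1 of 6 APAP mice and 1 of 13 gavage controls, and in no mouse of the other groups. As a share of the summed CPM of the 10 genes, Dusp6 had a median of 50.8% in GAL livers and 24.2% in gavage controls, and Dusp1 24.3% and 67.0%. A ratio within a library does not depend on how libraries are scaled.

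**Figure D3:**
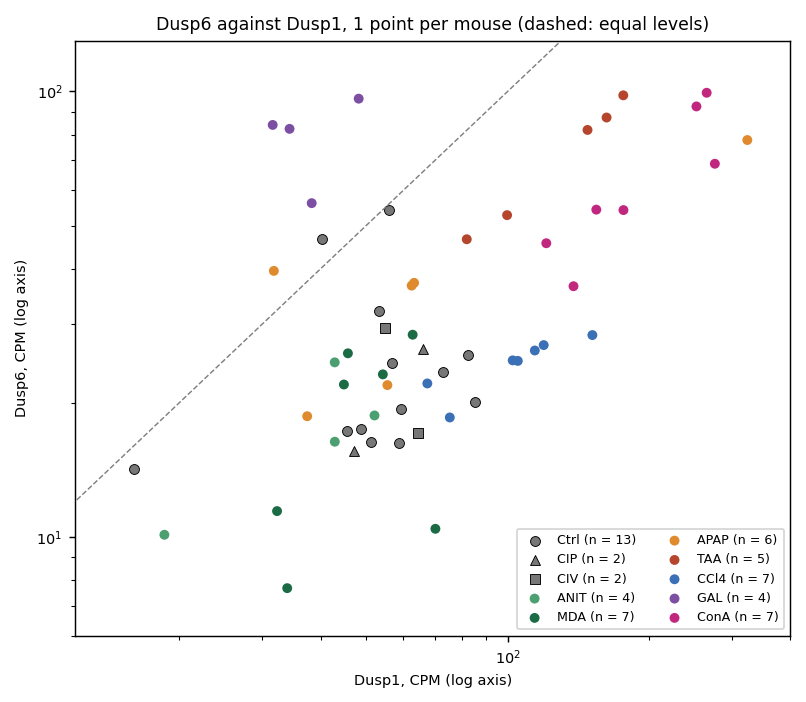
Dusp6 (vertical) against Dusp1 (horizontal), both in CPM on log axes, with 1 point per mouse and a dashed line at equal levels. The 4 GAL mice lie above the line, where only 1 of 17 vehicle mice and 1 of 6 APAP mice do, and the 7 CCl4 mice lie to the right with Dusp6 between 18.5 and 28.4 CPM.

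Spry2, a Sprouty protein that restrains receptor tyrosine kinase signalling, rose with 3 compounds. ConA mice ranged from 5.32 to 8.71 CPM (median 6.99) against 0.807 and 0.414 CPM. The log2 fold change was 3.49 ± 0.39 (adjusted p = 0.00017). Over 17 alternative settings that value ran from 2.05 to 4.09, the highest without saline mouse 7. TAA mice had 2.53, 2.52, 3.90, 6.87 and 3.00 CPM against 0.261 to 0.736 CPM (median 0.505) in gavage controls, a log2 fold change of 2.91 ± 0.23 (adjusted p = 5.84e-09). Both groups were clear of every vehicle mouse. APAP mice ranged from 0.738 to 3.22 CPM (median 1.15; 1.61 ± 0.29, adjusted p = 0.000348), the lowest just above the highest gavage control. The 4 GAL mice were close together at 1.12, 1.03, 1.08 and 1.04 CPM and above both saline mice (0.481 and 0.368 CPM); the log2 fold change of 1.24 ± 0.38 narrowly missed (adjusted p = 0.0539), and against all vehicles it was 1.00 ± 0.23 (adjusted p = 0.000943). ANIT, MDA and CCl4 mice ranged from 0.216 to 1.01 CPM and did not pass (-0.22 ± 0.31, -0.05 ± 0.24 and 0.44 ± 0.49).

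Spry1, of the same family, rose by route only with APAP and TAA. TAA mice had 6.82, 2.57, 4.13, 6.15 and 5.73 CPM against 1.5 to 3.2 CPM (median 2.50), a log2 fold change of 1.07 ± 0.19 (adjusted p = 0.000107). APAP mice ranged from 2.74 to 6.62 CPM (median 3.56; 0.72 ± 0.19, adjusted p = 0.00675). Both groups overlapped the controls. The highest values were in GAL mice 4 and 7, at 9.35 and 9.75 CPM, beside 3.11 and 5.33 CPM in mice 2 and 8 and 2.92 and 3.68 CPM in saline mice. The GAL value of 1.01 ± 0.52 did not pass (adjusted p = 0.188), that without mouse 2 was 1.26 (adjusted p = 0.0316), and against all vehicles it was 1.34 ± 0.21 (adjusted p = 1.28e-05). CCl4 (-0.66 ± 0.32), ConA (0.55 ± 0.33), ANIT (0.27 ± 0.20) and MDA (-0.18 ± 0.15) did not pass by route.

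Spry4, which also acts upstream of ERK, was the only one of the 10 called lower by route, and its direction differed between compounds. It rose in TAA livers, at 4.41, 2.64, 5.21, 6.51 and 5.66 CPM against 1.31 to 4.2 CPM (median 1.99), a log2 fold change of 0.98 ± 0.31 (adjusted p = 0.0124). It rose in ConA livers, at 2.56 to 6.09 CPM (median 4.40) against 1.92 and 1.85 CPM (1.30 ± 0.36, adjusted p = 0.018). Leaving out either intravenous saline mouse ended the ConA call (adjusted p 0.0784 and 0.0862). APAP mice ranged from 2.91 to 5.27 CPM (median 4.01), with 0.71 ± 0.29 by route (adjusted p = 0.0653) and 0.70 ± 0.26 against all vehicles (adjusted p = 0.0404).

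Spry4 fell in CCl4 livers, at 1.13 to 1.84 CPM (median 1.47) against 3.03 and 3.40 CPM in intraperitoneal saline mice. The log2 fold change was -1.16 ± 0.23 (adjusted p = 0.00424). It was -1.07 without saline mouse 8 and -0.71 by library totals alone (adjusted p = 0.0709). Intravenous saline mice had 1.92 and 1.85 CPM. Gavage controls numbered 1 to 4 had 1.31 to 1.35 CPM, inside the CCl4 range, and the other 9 had 1.48 to 4.2 CPM. Against all 17 vehicles the CCl4 fall was also called. That call was lost by library totals (-0.33, adjusted p = 0.331) and with mouse number as a block (-0.92, adjusted p = 0.0528). Among mice numbered 1 to 4, with 1 CCl4 mouse, the value was -0.27. Spry4 fell in MDA livers, at 0.388 to 1.43 CPM (median 0.928), a log2 fold change of -1.39 ± 0.32 (adjusted p = 0.00207). It fell in ANIT livers, at 0.600, 1.31, 1.28 and 1.43 CPM, a log2 fold change of -1.14 ± 0.40 (adjusted p = 0.0419). The ANIT call was lost on leaving out any 1 of the 4 ANIT mice (adjusted p 0.0604 to 0.122). GAL mice had 2.18, 1.80, 2.09 and 1.67 CPM, below both saline mice, with a log2 fold change of -0.79 ± 0.25 that did not pass (adjusted p = 0.0596).

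The gavage controls were not uniform in Spry4, and the Spry4 results measured against them differed with the numbers of the mice. The 4 controls numbered 1 to 4 stood at 1.34 ± 0.0209 CPM (SD, n = 4; 1.31 to 1.35) and the other 9 at 3.06 ± 1.06 CPM (SD, n = 9; 1.48 to 4.2), with no overlap. What the numbers stand for is not stated in the labels. All 4 ANIT mice carry numbers 1 to 4. With the number range as a covariate the ANIT value was -0.21 (adjusted p = 0.735), and among mice numbered 1 to 4 alone it was -0.22 (adjusted p = 0.681), so the ANIT fall was not seen within that range. The MDA value with the covariate was -1.10 (adjusted p = 0.00739) and among mice numbered above 4 it was -1.60 (adjusted p = 0.0102), both still called, while among mice numbered 1 to 4 it was -0.54 (adjusted p = 0.420). The APAP value was 1.80 among mice numbered 1 to 4 (adjusted p = 0.0123) and 0.29 among mice numbered above 4 (adjusted p = 0.604), so that the rise passed in the first range and not in the other; the difference between the ranges was not tested. With the covariate it was 0.95 (adjusted p = 0.0162). Against all vehicles the APAP call was lost among mice numbered above 4 (0.35, adjusted p = 0.478), without the mice numbered 1 (0.55, adjusted p = 0.139) and without a filter on low counts (adjusted p = 0.0773).

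**Figure D4:**
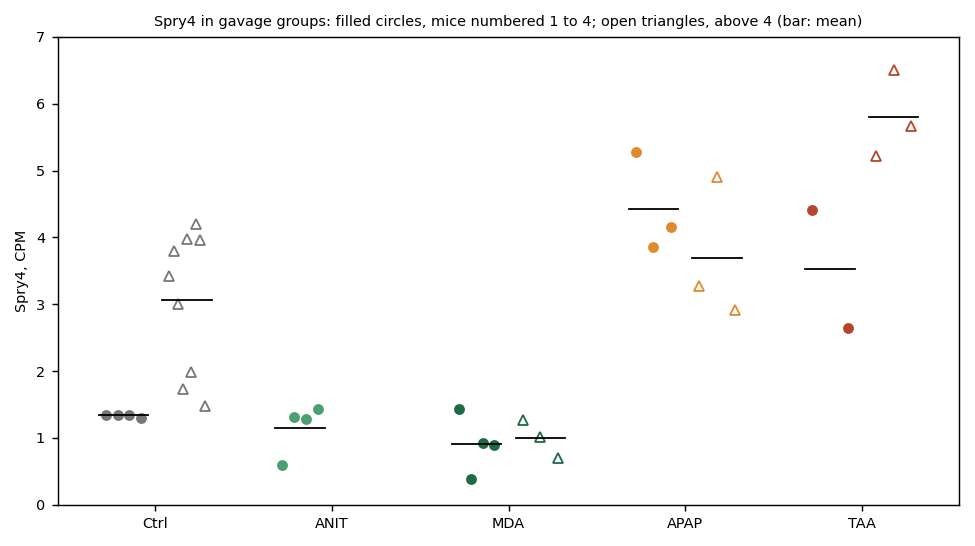
Spry4 in CPM (vertical) in the 5 gavage groups, with mice numbered 1 to 4 as filled circles and mice with higher numbers as open triangles; bars are means of each set. Controls numbered 1 to 4 lie at 1.31 to 1.35 CPM, inside the range of the ANIT mice (0.600 to 1.43 CPM), and the other 9 controls at 1.48 to 4.2 CPM.

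Compounds given by the same route were then compared with each other directly, with all genes adjusted within each comparison. Between MDA and ANIT livers 0 of 9 members were called, where 0% of all genes were called by edgeR and 1253 genes had an unadjusted p under 0.05. DESeq2 called 78 genes and edgeR called 627 (4.59%) with the mice numbered 1 left out, and 0 members were called in either. TAA livers were higher than MDA livers in 10 of 10 members, where 30% of all genes were called (15.8% higher in TAA and 14.3% higher in MDA), and all 5 TAA mice lay above all 7 MDA mice in each of the 10, as they did in 8.58% of all genes. The Dusp8 call among these was lost without TAA mouse 6 or 7 (adjusted p 0.0539 and 0.0562). TAA livers were higher than ANIT livers in 8 of 10, where 26.2% of all genes were called (15.1% higher in TAA, 11.1% higher in ANIT). Dusp8 (ANIT minus TAA -0.50 ± 0.74) and Spry1 (-0.79 ± 0.34) were the exceptions. APAP livers were higher than MDA livers in 4 of 10 (9.43% of all genes called, 5.38% higher in APAP and 4.05% higher in MDA): Spry4 by 2.11 ± 0.28, Dusp5 by 2.56 ± 0.68, Spry2 by 1.65 ± 0.41 and Spry1 by 0.90 ± 0.24 log2 units. APAP and ANIT livers differed in 1 of 10 (5.98% of all genes, 3.63% lower and 2.35% higher in ANIT), with Spry4 lower in ANIT livers (-1.87 ± 0.32), and 0 of 10 members were called without ANIT mouse 2 (0.934% of all genes). APAP and TAA livers differed in 1 of 10 (2.62% of all genes, 1.61% lower and 1.01% higher in APAP), with Dusp4 lower in APAP livers (-1.90 ± 0.41), and 0 of 10 members were called without TAA mouse 1, 6, 7 or 8 (0.445% to 2.24% of all genes). With the mice numbered 1 left out of both groups, 7 of 10 members were called lower in APAP than in TAA livers, where the share of all genes called also went up, to 15.4%.

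CCl4 and GAL, given by the same injection route, differed in 7 of 10 members, where 42.5% of all genes were called (22.2% higher in CCl4, 20.3% higher in GAL). Dusp4 (2.19 ± 0.36, adjusted p = 0.000511), Dusp1 (1.41 ± 0.22, adjusted p = 0.000335) and Dusp10 (0.68 ± 0.21, adjusted p = 0.0224) were higher in CCl4 livers. Dusp6 (-1.75 ± 0.15, adjusted p = 5.98e-06), Spry1 (-1.75 ± 0.33, adjusted p = 0.0013), Dusp2 (-1.47 ± 0.52, adjusted p = 0.037) and Spry2 (-0.90 ± 0.30, adjusted p = 0.0328) were higher in GAL livers. The Spry2 call was lost without any 1 of the 4 GAL mice (adjusted p 0.0505 to 0.0796), the Dusp2 call without GAL mouse 4 or 7 (0.0799 and 0.166) and the Dusp10 call without GAL mouse 8 (0.0828). Every CCl4 mouse lay above every GAL mouse in 3 of 10 members (Dusp1, Dusp4 and Dusp10), as in 15.8% of all genes, and below in 3 of 10 (Dusp6, Spry1 and Spry2), as in 10.9% of all genes. Scaled to library totals alone, the median of all genes in this comparison shifted to -0.26. Dusp5 (0.52 ± 0.41) and Dusp8 (-0.83 ± 0.44) did not pass.

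The other genes of the pathway were counted from lists chosen with earlier results in view. Among ERBB ligands, which activate EGF receptor family members, 6 of the 7 tested rose with TAA and with ConA, 4 of 4 with APAP, 3 of 3 with MDA, 3 of 5 with GAL, 3 of 7 with CCl4 and 1 of 3 with ANIT, and none fell. With CCl4 (42.9%, beside 33.5% of all genes) and ANIT (33.3%, beside 28.2%) the share called was near that of all genes. Hbegf, heparin-binding EGF-like growth factor, rose in 6 of the 7 comparisons, by 5.49 with TAA, 4.53 with ConA, 3.61 with APAP, 2.73 with ANIT, 2.22 with MDA and 1.34 with GAL on the log2 scale. With CCl4 the Hbegf value was 0.82 and did not pass. Areg, amphiregulin, was called with TAA (8.63), CCl4 (8.90) and ConA (9.60) and was too low to be tested with the other 4 compounds. These fitted values depend on the prior count where controls are near 0.

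Genes known to respond to ERK activity were also counted. Of those tested, 15 of 16 rose with TAA (median log2 fold change 2.82), 14 of 17 with ConA (2.92), 9 of 16 with APAP (1.26), 7 of 16 with CCl4 (1.16), 5 of 17 with GAL (0.83), 5 of 14 with ANIT (0.25) and 5 of 14 with MDA (0.32). Falls were called in 5 of 16 with CCl4, 2 of 17 with GAL and 1 of 14 with MDA. In both directions together the share called was 93.8% with TAA (50.5% of all genes), 82.4% with ConA (34.2%), 75% with CCl4 (33.5%), 56.2% with APAP (31.8%), 42.9% with MDA (33.8%), 41.2% with GAL (28.5%) and 35.7% with ANIT (28.2%). Fos, an immediate early transcription factor, was higher with TAA (2.81) and ConA (3.95) and lower with CCl4 (-2.10), and Egr1 was higher with TAA (2.63) and ConA (2.79) and lower with CCl4 (-1.94) and GAL (-1.68). Ier2 fell with CCl4 (-1.79) and GAL (-1.67), and Junb and Fosb fell with CCl4 (-1.11 and -2.20). Myc, Ier3 and Epha2 rose with all 7 compounds, Myc by 1.85 with ANIT to 5.74 with ConA, Ier3 by 1.89 with ANIT to 7.71 with ConA and Epha2 by 0.51 with MDA to 2.84 with TAA.

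Among 17 genes of the Ras to ERK cascade itself, 7 rose and 2 fell with TAA, 4 and 1 with ConA, 4 and 2 with APAP, 4 and 2 with GAL, 4 and 0 with MDA, 3 and 0 with CCl4 and 3 and 1 with ANIT. In both directions together that was 52.9% of the 17 with TAA (50.5% of all genes), 35.3% with APAP (31.8%) and with GAL (28.5%), 29.4% with ConA (34.2%), 23.5% with ANIT (28.2%) and with MDA (33.8%) and 17.6% with CCl4 (33.5%), near or below the share of all genes. The median log2 fold change over that list lay between 0.04 and 0.48. Ptpn11, which encodes the phosphatase SHP2 that transmits receptor signals to Ras, rose with all 7, by 0.41 with MDA to 1.01 with CCl4. Of the other negative regulators tested, 8 rose and 0 fell of 14 with TAA, 6 and 0 of 14 with APAP, 4 and 3 of 13 with ANIT, 4 and 0 of 15 with ConA, 3 and 1 of 15 with CCl4 and with GAL, and 2 and 3 of 13 with MDA. Of those tested, 57.1% were called with TAA (50.5% of all genes), 53.8% with ANIT (28.2%), 42.9% with APAP (31.8%) and 38.5% with MDA (33.8%), and 26.7% with each of CCl4 (33.5%), GAL (28.5%) and ConA (34.2%). Dusp16, a JNK phosphatase, rose with ConA (2.28), TAA (2.16), APAP (0.91) and ANIT (0.77). Errfi1, an inhibitor of the EGF receptor, fell with CCl4 (-1.03) and GAL (-1.59).

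The 10 genes varied together to different degrees over the 57 livers, which share treatments, so that correlations are descriptions only. Pearson's r of log2(CPM + 1) was highest between Dusp4 and Dusp5 (0.91), Dusp5 and Dusp10 (0.88) and Dusp2 and Spry2 (0.88). It was lowest between Dusp4 and Spry4 (0.19) and Dusp4 and Spry1 (0.23). Of the 12371 genes that averaged 1 CPM or more, the gene most like Dusp4 (r 0.94) and most like Dusp5 (r 0.95) was Fosl1, an AP-1 transcription factor subunit. Spry2 was closest to Adm (0.97), the gene of adrenomedullin, and F3 (0.96), that of tissue factor. Dusp2 was closest to Rell1 (0.92) and Sele (0.92), the latter encoding E-selectin, and Dusp8 to Bcl10 (0.93) and Rhbdf2 (0.90). Dusp10 was closest to Smox (0.93) and Mapk6 (0.93), and Dusp1 to Irf2bp2 (0.83) and Pim1 (0.83). The remaining genes had looser neighbours: Dusp6 Snx18 (0.81) and G3bp1 (0.81), Spry1 Tnfrsf21 (0.78) and Zswim6 (0.75), and Spry4 Cdh5 (0.78) and Bcar1 (0.78).

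Whole liver RNA cannot tell more cells of a type from more RNA per cell, and markers of other cells moved in the same comparisons. Of 6 neutrophil markers 6 of 6 tested rose with TAA, where 26.4% of all genes were called higher. The counts were 4 of 4 with ConA (16.8% of all genes), 3 of 3 with APAP (17.3%) and 3 of 5 with CCl4 (18%). Of these markers 3 of 4 rose with GAL (12.8%), 2 of 3 with MDA (17.4%) and 1 of 3 with ANIT (14%). Their summed level was 155 to 807 CPM in TAA livers, 126 to 287 in ConA livers, 11.1 to 260 in APAP livers, 9.74 to 67.0 in CCl4 livers, 20.3 to 34.9 in GAL livers, 6.69 to 120 in MDA livers and 13.8 to 46.1 in ANIT livers. In gavage controls it was 0.714 to 49.6 CPM, in intraperitoneal saline mice 2.96 to 3.33 and in intravenous saline mice 5.83 to 6.11. Ly6g was at 0 in every ANIT and vehicle mouse. The part of these cells in the changes of the 10 genes was not tested. In the APAP group the neutrophil sum was highest in mice 11 (260 CPM) and 8 (192 CPM) and stood at 35.9 CPM in mouse 1.

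All 6 hepatocyte markers were detected in every liver. Their sum had a median of 24750 CPM in CCl4 livers (19928 to 29246), 27529 in GAL livers (25822 to 33871) and 69321 in gavage controls (49441 to 119423), and 55867 and 57771 in the saline groups. Medians in the other 5 compounds lay between 60553 and 73483 CPM. Of the 6 hepatocyte markers 6 fell with CCl4, 5 with GAL, 3 with TAA and with MDA, 2 with APAP and 1 with ANIT and with ConA, while 1 of the 6 rose with each of TAA, MDA, APAP and ANIT. Of 5 recruited macrophage and monocyte markers, 4 rose with GAL, 3 with APAP and with TAA, 2 with CCl4 and with ConA (of 4 tested) and 1 with MDA, and 1 of 4 tested fell with ANIT. Of 5 Kupffer cell markers all 5 fell with ConA, 2 rose and 0 fell with GAL, 1 rose and 2 fell with CCl4, and 1 rose and 1 fell with each of the others. Of 5 sinusoidal endothelial markers 4 fell with TAA and with CCl4, 3 with ConA and with MDA, 2 with ANIT, 1 with APAP and 0 with GAL, and 1 rose with each of TAA, ConA, MDA, ANIT and APAP. Of the B cell markers tested, 3 of 3 rose with TAA (sum 3.29 to 11.1 CPM, median 8.34, beside 0.878 to 4.21 and 2.09 in gavage controls), and 2 of 3 fell with ANIT and 2 of 2 with MDA. Of 5 stellate cell markers 4 fell with MDA and 2 with each of ANIT, CCl4 and ConA, 2 rose with APAP, and 1 rose and 1 fell with TAA. Of 5 cholangiocyte markers 2 rose with each of TAA, ConA and APAP and 1 with MDA, and 1 rose and 2 fell with ANIT. Proliferation markers rose with CCl4 (3 of 4 tested) and APAP (1 of 2) and fell with ANIT and MDA (2 of 2 in each). Of 3 T cell markers tested 1 fell with MDA, and the 1 NK cell marker tested fell with ANIT and TAA. Beside these marker counts, the share of all genes called in either direction was 50.5% with TAA, 34.2% with ConA and 31.8% with APAP. It was 33.5% with CCl4, 28.5% with GAL, 33.8% with MDA and 28.2% with ANIT. The part of these cells in the results was not tested either.

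Total estimated counts ran from 13826300 to 35075800 per library (median 21532100), no library duplicated another, and Pearson's r within groups was 0.935 to 0.986. The share of mitochondrial genes ran from 5.11% to 39.3%. It was highest in ConA livers, at 14.6% to 39.3% (median 24.4%), where the gavage controls had 7.48% to 21.8% (median 14.04%) and the 2 intravenous saline mice 6.79% and 25.4%. The TMM scaling factors of the ConA libraries were 0.471 to 0.954 and those of the intravenous saline libraries 0.927 and 1.09. They were 1.64 to 1.77 in GAL and 1.17 to 1.5 in CCl4 libraries, where the intraperitoneal saline libraries had 0.961 and 1.10. Scaling to library totals alone moved the median of all genes by route to 0.84 with GAL, 0.53 with CCl4, -0.56 with ConA, -0.23 with ANIT and 0.22 with APAP. The part of the mitochondrial share in the ConA results was not tested. The most weakly expressed of the 10 rest on few counts in control livers: Dusp2 on 0 to 18.8, Dusp8 on 1.19 to 34.2 and Dusp5 on 2.24 to 43.8 estimated counts per gavage control.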

How the data were processed

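Polyadenylated RNA from the outer left lateral lobe of perfused livers was made into stranded libraries (TruSeq) and sequenced single-end, per the labels' protocols. The authors deposited estimated counts per gene, 1 column per mouse, and the submitters' processing notes name Salmon 1.6.0, R 4.1.3 and GRCm39. The annotation, the use of strand and any length correction are not given in the sources used here. Over 10101 genes with a single transcript of at least 500 nt, the smallest deposited value above 0 fell with length (Spearman's rho -0.654, across genes), as it does in values divided by length.

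Estimated counts were rounded and tested with edgeR 4.0.16 (R 4.3.3; limma 3.58.1 and data.table, release 1.17.8, were loaded beside it): TMM scaling, filterByExpr, quasi-likelihood test, two-sided, each comparison fitted on its 2 groups without covariates. Fold changes use a prior count of 0.125, and standard errors come from the F statistic. Symbols came from GENCODE M21 names, which matched 51482 of 54307 IDs. Alternatives were RLE scaling, library totals, no filter, a mean of at least 5 CPM, DESeq2 1.42.0, limma on log2(CPM + 1), a covariate for number range, subsets by mouse number, the number as a block, leaving out 1 mouse at a time (treated and saline mice by route, otherwise groups of at most 5), and restored lengths. The last, the subset numbered 1 to 4 and the omission of mice numbered 1 were added after the data were seen. The test was tried on simulated data, and the outcome is not given here. Each label names 1 mouse, and numbers recur between groups. Deviations of same-numbered mice from group means correlated between -0.36 and 0.28 and in no comparison were all above 0.1 with 3 or more pairs, so mice were not treated as paired. Named genes are the 10 members, the pathway lists and the 2 genes most like each member; the Dusp6 to Dusp1 ratio was added later. Members and lists were chosen with earlier results of these data known.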

Additional observations from a re-analysis of the deposited data

Results flagged for a closer look

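Within groups of 4 to 10 mice, 1 mouse stood apart from the rest by Dixon's test in 7 of 70 gene and group combinations, where chance flags about 1 in 20 groups. Of the 7, 6 belonged to APAP mouse 1, which was the highest of its group. It had 324 CPM of Dusp1 where the next APAP mouse had 63.2, 6.92 of Dusp2 where the next had 0.610, 9.70 of Dusp4 where the next had 3.30 and 39.0 of Dusp5 where the next had 16.1. Its Dusp6 stood at 77.8 CPM beside 39.5 in the next mouse, and its Dusp10 at 15.2 CPM beside 4.60. The TMM scaling factor of that library was 0.755, the lowest of the group, and its part was not tested. Scaling to library totals alone was added after the data were seen. By it that mouse had 244 CPM of Dusp1 beside 77.7 in the highest other APAP mouse. The values were 5.22 beside 0.703 for Dusp2, 7.32 beside 4.06 for Dusp4 and 29.4 beside 19.8 for Dusp5. They were 58.7 beside 46.1 for Dusp6, 11.5 beside 5.36 for Dusp10 and 2.43 beside 2.41 for Spry2. Mouse 1 was not the highest by library totals for Dusp8 (5.51 beside 8.96), Spry1 (5.00 beside 5.33) and Spry4 (3.98 beside 6.03). The other case was Dusp5 in ANIT mouse 3, at 6.04 CPM where the next ANIT mouse had 1.28.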

How the results depend on the processing

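Of 3236 fold changes of single members under alternatives, 3014 stayed on their side of the threshold, 175 lost and 46 gained a call, and 1 called value changed sign (Dusp1 with GAL against all vehicles, 0.20 by library totals). Of the 3014, 88 also changed sign, none of them called in either setting. The number of members called moved by over 1.5 times in the following cases, whose causes were not tested unless fewer genes or mice entered the fit. A mean of at least 5 CPM left few members to test. By route it gave 0 of 2 with each of ANIT (35.5% of all genes called), APAP (40.9%) and MDA (41%). It gave 3 of 3 with TAA (59.3%) and 5 of 5 with ConA (42.4%). Against all vehicles it gave 0 of 2 with ANIT (35.6%) and MDA (41.3%) and 1 of 2 with APAP (42.8%) and GAL (67.6%). There it gave 3 of 3 with TAA (59.1%), 3 of 4 with CCl4 (64.9%) and 2 of 2 with ConA (74.2%). Between compounds it gave 0 of 3 for ANIT and APAP (6.52%) and 5 of 6 for ANIT and TAA (29%). It gave 1 of 3 for APAP and MDA (9.86%) and 6 of 6 for MDA and TAA (34.5%). Among mice numbered 1 to 4, members called were 1 of 7 tested with ANIT (13.7% of all genes called), 3 of 8 with APAP (6.28%) and 1 of 6 with MDA (10.4%); no saline mouse has such a number, so the fits by route and against all vehicles are the same. Among mice numbered above 4 they were 5 of 10 with APAP against all vehicles (22.1% of all genes called). In that range they were 0 of 10 for APAP and MDA (0.429%), 6 of 10 for APAP and TAA (7.24%) and 4 of 10 for CCl4 and GAL (35.9%). Without mice numbered 1 they were 5 of 10 with APAP against all vehicles (29.1% of all genes called). In those fits they were 2 of 10 for ANIT and APAP (16.2%) and 7 of 10 for APAP and TAA (15.4%). By library totals they were 8 of 10 with GAL by route (41% of all genes called) and 5 of 10 for ANIT and APAP (10.4%). By DESeq2 they were 5 of 10 for ANIT and APAP (15.3%) and 2 of 10 for APAP and TAA (8.27%). By limma they were 2 of 10 for APAP and TAA (3.7%). Without a filter they were 1 of 10 for APAP and MDA (3.66%) and 0 of 10 for APAP and TAA (0.527%). With the range covariate they were 3 of 10 with GAL by route (21.4%).

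With the mouse number as a replicate block, which the numbers did not support as a pairing, members called were 0 with ANIT (6.84% of all genes called) and 0 with APAP (1.65%) by route, 0 for ANIT and TAA (0.861%), 0 for each of ANIT and APAP, APAP and MDA, and APAP and TAA, where 0% of all genes were called, and 6 for MDA and TAA (10.4%). No paired analysis was possible for CCl4 or ConA by route or for CCl4 and GAL because they shared 1 number.

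With 1 treated mouse left out, members called by route were 2 to 3 with ANIT (17.5% to 27.4% of all genes called). They were 6 to 7 with APAP (27.2% to 32.4%) and 4 to 5 with MDA (28.8% to 34.8%). They were 10 with TAA (45.2% to 50.9%), 5 to 6 with CCl4 (30.5% to 36.2%) and 9 with ConA (30.6% to 36.1%). With GAL they were 3 to 7 (16.1% to 42.5%). Fits left with 1 saline mouse are not counted here. Against all vehicles they were 2 to 4 with ANIT (17.5% to 26.9%) and 10 with TAA (44.1% to 48.9%). With GAL that count was 8 to 9 (44.1% to 52.2%). Between compounds they were 0 to 1 for ANIT and APAP (0.934% to 4.92%) and 0 for ANIT and MDA (up to 0.392%). They were 8 to 9 for ANIT and TAA (17.5% to 32.2%) and 0 to 1 for APAP and TAA (0.445% to 2.24%). For MDA and TAA they were 9 to 10 (24.3% to 31.6%), and for CCl4 and GAL 5 to 7 (32.3% to 47.3%). Members low in vehicle livers rest on few reads there, and 2 saline mice a group limit both injection routes.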

Other observations

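Of the 4 or 5 other ligands tested, 4 rose and 1 fell with TAA, 2 and 1 with MDA, 2 and 0 with APAP and with ANIT, 1 and 1 with CCl4 and with ConA, and 0 and 1 with GAL. The share called was 100% with TAA (50.5% of all genes), 75% with MDA (33.8%), 50% with APAP (31.8%), ANIT (28.2%) and ConA (34.2%), 40% with CCl4 (33.5%) and 20% with GAL (28.5%). Fgf21, a hepatokine of fasting and stress, was called higher with ANIT (7.17 on the log2 scale), MDA (5.31), TAA (3.65), APAP (2.73) and CCl4 (2.27), and its values with ConA (0.70) and GAL (-1.79) did not pass. Erbb3, a receptor for neuregulins, fell with GAL (-2.37), TAA (-2.20), ConA (-2.14) and CCl4 (-2.13), and Nrg1, which encodes such a ligand, rose with ConA (5.37), TAA (5.34), APAP (3.22), CCl4 (2.98) and GAL (2.26). Of the 8 or 9 receptors tested, 4 fell with TAA and with GAL, 3 with CCl4, 2 with ConA and with MDA and 1 with APAP and with ANIT, while at most 2 rose with any compound. The share of receptors called in either direction was 62.5% with TAA (50.5% of all genes), 50% with GAL (28.5%) and ConA (34.2%), 37.5% with MDA (33.8%), 33.3% with CCl4 (33.5%), 25% with APAP (31.8%) and 1 of 8 with ANIT (28.2%).

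Among 15 genes of the JNK and p38 branch, 8 rose and 3 fell with TAA, and with the other compounds 2 to 4 rose and 0 to 2 fell. That was 73.3% of the branch with TAA, where 50.5% of all genes were called. With CCl4 (33.5% of all genes), GAL (28.5%) and ConA (34.2%) it was 33.3% each. It was 26.7% with MDA (33.8%) and 13.3% with ANIT (28.2%) and APAP (31.8%). In the 6 other than TAA the share was near or below that of all genes. Mapk13, which encodes p38 delta, rose with ConA (3.13), APAP (2.83) and TAA (2.36). Map2k6, an activator of p38, fell with ConA (-2.61), GAL (-2.56), TAA (-2.29) and CCl4 (-1.95). Mapkapk2, a kinase downstream of p38, rose with 6 compounds, by 0.43 with MDA to 1.79 with ConA, and its APAP value was 0.56 and did not pass.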
